A study of Homo sapiens with 2 samples.

Results

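The genes described here were 7 members of the sine oculis homeobox, EYA and DACH families, namely SIX2, SIX4, EYA1, EYA2, EYA3, EYA4 and DACH1. They were taken by name from the 33694 gene rows of each deposited count table, and all 7 had a row in both tables. Their counts were followed over the cell types and the enteric neural crest (ENC) subclusters that the authors assigned to each cell, and cells marked as low quality were treated apart. The cells came from H9, an established line of human embryonic stem cells, unmodified and taken through enteric neural crest induction, which yields the precursors of the neurons and glia of the gut. The D10 library was made from a monolayer growing on Geltrex late in induction. Per the study's methods, the induction media held CHIR 99021, an inhibitor of GSK3 that activates WNT signalling, among other agents. BMP4 was given at the start and retinoic acid late. The D15 library was made from enteric crestospheres, the floating spheres formed after the monolayer had been detached. Their medium held FGF2 and CHIR 99021, the latter at a higher concentration than before. Each group was 1 library (n = 1) that pooled cells of 2 biological repeats, and no treatment beyond the culture media was described for either. Stage, culture format, medium, depth and library cannot be told apart, and no difference between the libraries had a replicate check.

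Sine oculis homeobox proteins are homeodomain transcription factors that bind DNA, and EYA proteins are co-activators without a DNA-binding domain of their own that the homeodomain partners carry to their targets. EYA proteins are also protein phosphatases, while DACH proteins, relatives of the SKI oncoprotein, mostly act as co-repressors in the same network. In vertebrate embryos members of this network mark the preplacodal ectoderm and the cranial placodes, the thickenings beside the neural plate that give rise to the lens, the inner ear and the sensory neurons of the cranial ganglia. Neural crest cells arise next to them and form a different set of derivatives.

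Promoter sequences from RefSeq (GRCh38.p14), running from 250 bases before to 50 after the gene start, were found for 5 of the 7 members. EYA1 and EYA2 had no entry. SIX4 and DACH1 had their highest D15 level in 1 of the 2 placode clusters, and EYA3 had a similar level in most cell types. The promoters of these 3 genes are shown. They are written 5′ to 3′ on the strand of the gene, all minus, at chr14:60724302-60724601, chr13:71867155-71867454 and chr1:28088561-28088860, and capitals mark E-boxes, the letters CANNTG to which proneural factors such as NEUROG1 and NEUROD1 bind.
SIX4: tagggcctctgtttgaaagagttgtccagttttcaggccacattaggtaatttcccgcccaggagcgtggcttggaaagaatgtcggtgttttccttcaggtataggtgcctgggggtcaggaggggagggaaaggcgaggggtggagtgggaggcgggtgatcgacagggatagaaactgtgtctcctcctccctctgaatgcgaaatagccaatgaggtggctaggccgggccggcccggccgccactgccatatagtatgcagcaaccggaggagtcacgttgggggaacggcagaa
DACH1: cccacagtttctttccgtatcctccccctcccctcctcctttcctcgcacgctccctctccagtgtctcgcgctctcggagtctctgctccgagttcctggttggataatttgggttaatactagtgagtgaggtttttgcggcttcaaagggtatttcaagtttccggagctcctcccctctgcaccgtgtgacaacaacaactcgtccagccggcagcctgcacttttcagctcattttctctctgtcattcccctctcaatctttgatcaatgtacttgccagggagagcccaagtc
EYA3: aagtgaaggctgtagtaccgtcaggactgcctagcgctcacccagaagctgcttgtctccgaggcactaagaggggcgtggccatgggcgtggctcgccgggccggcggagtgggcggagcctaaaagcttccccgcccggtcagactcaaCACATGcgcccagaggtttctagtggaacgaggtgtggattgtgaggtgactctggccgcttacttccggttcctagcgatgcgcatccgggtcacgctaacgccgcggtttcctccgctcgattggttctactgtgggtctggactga
The SIX4 and DACH1 windows held 0 E-boxes, against 1 in the EYA3 window, where the letters are CACATG. Of 35116 promoters of this length, 68.7% held at least 1 E-box on either strand, so none of these counts sets the members apart. The letters GGGCGG, a GC box of housekeeping promoters, occurred 2 times in the EYA3 window, 1 time in that of SIX4 and 0 times in that of DACH1, counted on both strands, so that some matches read as CCGCCC above. Of all promoters 45.0% held it on either strand. The letters TCAGGTTNC, bound by the homeodomain members and found in 1.07% of promoters, occurred in none of the 3. An absent match says only that these letters were not in this window.

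The D10 library held 9627 cells and 70488169 unique molecular identifiers (UMIs, each counting 1 captured RNA molecule), and the D15 library held 6320 cells and 84976253 UMIs. Median depth was 6713 UMIs per cell at D10 and 11770.5 at D15, and 102 cell barcodes occurred in both libraries. The annotated cell types at D10 were ENC (4921 cells), neuro-epithelial progenitors (NEP, 1811), cranial placode (CP, 324) and non-neural ectoderm (NNE, 239). At D15 they were ENC (4934), 2 placode clusters named CP1 (208) and CP2 (43), NEP (104) and mesenchymal cells (Mes, 47). The markers fixed for each type largely matched these names, with the summed level of 10 placode markers at 1158 UMIs per 1000000 UMIs (CPM) in CP, 10526 CPM in CP1 and 6592 CPM in CP2 against 18.4 CPM in D10 ENC and 83.2 CPM in D15 ENC. SST, which encodes somatostatin, made up 7858 CPM of the sum in CP1 and 2868 CPM of that in CP2. Of the 10 placode markers PAX2 and PAX8 were at 0 in CP and CP1, and 4 were at 0 in CP2 (NEUROG1, PAX8, DLX5 and ELAVL4), where PAX6, a marker of NEP, stood at 380.6 CPM. The D15 NEP cluster had 957.2 CPM of the 6 NNE markers and 289.4 CPM of the 5 NEP markers, so its name is used here only as the label.

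Levels were summed over the cells of a type and divided by all UMIs of those cells, in CPM, with exact Poisson 95% intervals in brackets. These intervals, and the Clopper-Pearson intervals given with shares of cells, cover counting error only. EYA2, a co-activator known from placodes and skeletal muscle, was the member most restricted to the placode clusters. At D10 it stood at 33.9 CPM (27.1 to 41.9, 85 UMIs) in CP, 2.28 CPM in NEP, 2.17 CPM in NNE and 0.812 CPM in ENC. The CP interval lay apart from the next type, and those of NEP and NNE overlapped. At D15 EYA2 stood at 31.0 CPM (24.3 to 38.9, 74 UMIs) in CP1 and at 4.98 CPM in CP2, where it rested on 2 UMIs. It was at 0.872 CPM in NEP (1 UMI) and 0.322 CPM (0.191 to 0.509) in ENC, and 0 UMIs fell in the 47 Mes cells. The study named its placode clusters partly by EYA2, and all these genes took part in the clustering, so the levels by cluster are descriptions and were not tested.

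**Figure D1:**
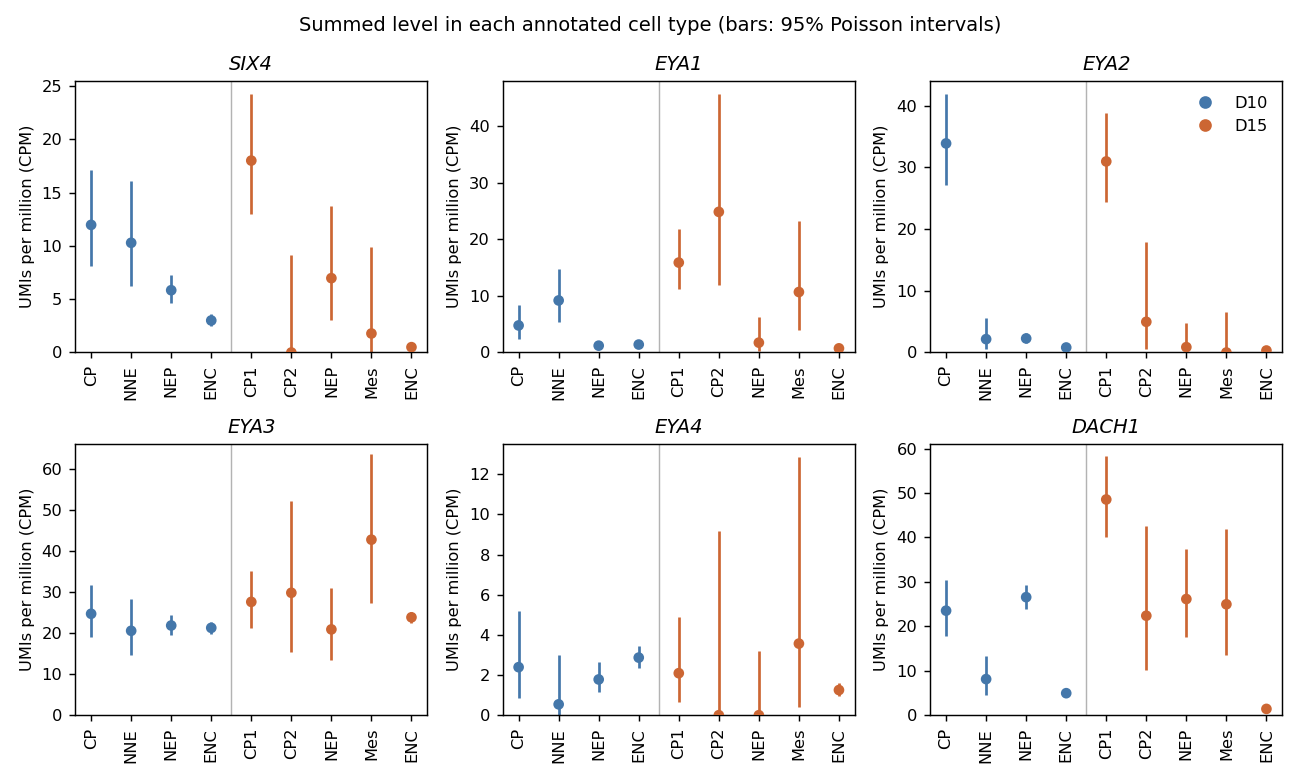
Level of 6 members (y axes, CPM, each axis with its own range from 0) in every annotated cell type of the D10 (blue) and D15 (orange) libraries, with vertical bars for 95% Poisson intervals. EYA2 exceeded 30 CPM in CP and CP1 alone, DACH1 was also high in NEP, and EYA3 differed little between types except in Mes at D15. SIX2 is not drawn because it had 0 UMIs in all of them.

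SIX4, a homeodomain factor of sensory ganglia and muscle, spread more widely over the ectodermal types. At D10 its level was 12.0 CPM (8.07 to 17.1) in CP and 10.3 CPM (6.20 to 16.1) in NNE, which did not differ beyond counting error. NEP followed at 5.84 CPM and ENC at 3.00 CPM, and the intervals of these last types lay apart. At D15 SIX4 stood at 18.0 CPM (13.0 to 24.2, 43 UMIs) in CP1 and at 6.97 CPM (3.01 to 13.7, 8 UMIs) in NEP, which overlapped. ENC cells at D15 had 0.501 CPM (28 UMIs), and CP2 had 0 UMIs in its 43 cells, where the Poisson interval reached 9.18 CPM. SIX2, which maintains nephron progenitors in the kidney, had 0 UMIs in all 9627 cells of the D10 library. With up to 3 UMIs allowed for, that is at most 0.0426 CPM. At D15 a single SIX2 UMI was found, in a cell marked as low quality.

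EYA1, required for the inner ear and the kidney, had a different order of cell types. At D10 it was at 9.21 CPM (5.36 to 14.7, 17 UMIs) in NNE and at 4.79 CPM (2.47 to 8.36, 12 UMIs) in CP, with overlapping intervals. ENC at 1.41 CPM and NEP at 1.21 CPM did not differ beyond counting error and lay below both. At D15 the order was CP2 at 24.9 CPM (11.9 to 45.8, 10 UMIs), CP1 at 15.9 CPM (11.3 to 21.8, 38 UMIs) and Mes at 10.7 CPM (3.93 to 23.3, 6 UMIs), 3 neighbours whose intervals overlapped. ENC cells had 0.734 CPM (0.527 to 0.996). EYA1 was therefore low in ENC cells and spread over placode, ectodermal and mesenchymal clusters.

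DACH1, the co-repressor, was shared by placode and neuro-epithelial cells. At D10 it reached 26.6 CPM (23.9 to 29.4, 373 UMIs) in NEP and 23.5 CPM (17.9 to 30.4, 59 UMIs) in CP, which overlapped, against 8.13 CPM in NNE and 4.95 CPM in ENC. At D15 CP1 was highest at 48.6 CPM (40.1 to 58.2, 116 UMIs). NEP at 26.2 CPM, Mes at 25.0 CPM and CP2 at 22.4 CPM followed with overlapping intervals, and ENC was lowest at 1.42 CPM (1.12 to 1.76). The ENC interval lay apart from that of every other D15 type.

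EYA4, mutated in inherited deafness and cardiomyopathy, stayed low in each type. Its highest level was 3.57 CPM in Mes at D15, on 2 UMIs, and at D10 the intervals of all neighbouring types overlapped, with ENC at 2.87 CPM (2.35 to 3.47) and CP at 2.39 CPM. EYA3, a broadly expressed phosphatase that acts on histone H2AX in DNA repair, was detected everywhere. Its level ran from 20.6 CPM in NNE to 24.7 CPM in CP at D10 and from 20.9 CPM in NEP to 42.8 CPM (27.4 to 63.7, 24 UMIs) in Mes at D15. Neighbours in both orders overlapped, but at D15 the Mes interval lay apart from that of ENC, at 23.9 CPM (22.6 to 25.2).

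Within each library the placode cluster was set against all other kept cells, and a gene was called higher where the log2 ratio of CPM + 1 was at least 1 and 1 side had at least 5 CPM. At D10, 4 of the 7 members could be compared. Of these 3 were called higher in CP (EYA2, SIX4 and DACH1), where 4.90% of the 9638 genes compared were. The log2 ratio was 3.96 for EYA2, a ratio of 27.1 (19.4 to 38.0), 1.37 for SIX4 and 1.06 for DACH1. EYA1 had a log2 ratio of 1.14 but missed the level of 5 CPM. At D15, 5 members could be compared. Of these 4 were called higher in CP1, where 15.9% of genes were. Their log2 ratios were 4.55 for EYA2, 3.92 for DACH1, 3.54 for SIX4 and 3.07 for EYA1. With a minimum of 20 CPM in place of 5 CPM, 2 members were called in CP and 2 in CP1, since SIX4 in both and EYA1 in CP1 stayed below it. EYA2 was 85.5 times (52.1 to 146.2) as high in CP1 as in the other kept cells, and its share of all EYA2 UMIs in kept cells was 74 of 95. In CP2 EYA1 and DACH1 were called, in a comparison where 33.0% of all genes were called higher, so a count of 2 there says little about the members. EYA3 and EYA4 were not called in any of the 3 clusters. Among the calls only that of DACH1 in CP had at least 5 CPM on both sides. The other called members were compared through the placode cluster alone, which favours a call of higher, so these counts are descriptions.

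Shares of cells with a UMI were taken at 1 depth, after thinning each cell to 3000 UMIs. EYA2 was then seen in 32 of 323 CP cells, or 9.91% (6.88 to 13.7), and in 11 of 4919 ENC cells, or 0.224% (0.112 to 0.400). Before thinning the shares were 21.6% and 0.610%, at median depths of 7438 and 7004 UMIs. At D15 EYA2 was seen in 9.62% (5.97 to 14.5) of thinned CP1 cells and 0.182% (0.0834 to 0.346) of ENC cells, whose median depths were 11734.5 and 11082 UMIs. DACH1 was seen in 17.3% (12.4 to 23.2) of CP1 cells and 6.81% (4.32 to 10.1) of CP cells after thinning, a pair of intervals that lay apart. SIX4 was seen in 4.33% and 3.72% of the same clusters, which overlapped.

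RNA released from broken cells can place a few UMIs of a gene in droplets of other types, and SST, which reached 7858 CPM in CP1, gave a scale for this at D15. In CP1 there were 3.94 EYA2 UMIs (3.09 to 4.95) per 1000 SST UMIs, and in ENC cells there were 5.67 (3.36 to 8.98). Because these intervals overlapped, the 18 EYA2 UMIs of D15 ENC cells are read neither as expression in them nor as released RNA. The scale takes all SST UMIs of ENC cells as released RNA, which was not tested. Of these 3172 SST UMIs, 344 lay in the 27 ENC cells with no numbered subcluster. DACH1 had 24.9 UMIs (19.7 to 31.1) per 1000 SST UMIs in ENC against 6.18 (5.10 to 7.42) in CP1. SIX4 had 8.83 (5.86 to 12.8) against 2.29 (1.66 to 3.09), and EYA1 had 12.9 (9.26 to 17.6) against 2.02 (1.43 to 2.78). These 3 members were therefore above the CP1 proportion in ENC cells, as were EYA4 at 22.1 and EYA3 at 420.2. Against CP2, EYA1 at 8.67 (4.15 to 16.0) overlapped ENC, unlike SIX4 and DACH1. RNA from types poor in SST is not covered by this scale, as NEP had 469 DACH1 UMIs (293 to 734) per 1000 SST UMIs. The part of released RNA in the ENC levels of these members was not tested.

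Cells were also counted by the number of members they held. Of 324 CP cells, 189 had no UMI of EYA2, SIX4, EYA1 or DACH1, 112 had 1 of the 4 genes, 21 had 2, 2 had 3 and 0 had all. Of 208 CP1 cells, 62 had none, 94 had 1, 41 had 2, 8 had 3 and 3 had all 4. EYA2 and DACH1 met in 13 CP cells where the product of their shares gave 11.02, and in 25 CP1 cells where it gave 23.8. DACH1 and NEUROD1, a proneural factor of sensory neurons, met in 36 CP cells against 22.5. EYA2 and NEUROG1 met in 64 CP cells against 55.3, and EYA2 and SIX4 in 3 against 6.05. Depth rose with the number of members seen, from a median of 7171 UMIs in CP cells with none to 8325 in those with 2, and its part in these counts was not tested.

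The other genes of the network were taken from lists. Of 25 genes of sensory neurogenesis, 17 could be compared in CP and 16 were called higher, and all 18 compared in CP1 were, with medians of 5.06 and 4.78 on the log2 scale against -0.05 and 0.20 over all genes compared. NEUROG1, which starts sensory neurogenesis, stood at 362.1 CPM in CP and at 20.9 CPM in CP1. NEUROD1, ISL1 and POU4F1, which act later in the same neurons, stood at 164.3 CPM, 111.7 CPM and 119.3 CPM in CP and at 529.6 CPM, 285.1 CPM and 282.2 CPM in CP1. EYA2, at 33.9 CPM and 31.0 CPM, differed by less than counting error between the same clusters. These lists were chosen with earlier results of the same cells known and some of their genes define the clusters. A gene could also reach the 5 CPM limit through the placode cluster alone, which favours a call of higher, so these counts are descriptions.

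Preplacodal and placode factors were compared in the same way in each placode cluster. Of 26 such genes 8 could be compared in CP, of which 1 was called higher and 2 lower, where 4.90% of all genes were called higher and 5.33% lower. In CP1 2 of 8 were higher and 3 lower, where 15.9% of all genes were higher and 6.97% lower. In CP2 4 of 7 were higher and 1 lower, where 33.0% of all genes were higher and 14.6% lower. The median log2 ratio of the factors was -0.28 in CP, -0.02 in CP1 and 2.69 in CP2, against -0.05, 0.20 and 0.46 over all genes compared. The genes compared were not the same in each cluster, and a gene could reach the limit through 1 cluster alone, as PAX2 did in CP2. With 7 or 8 genes these counts say little about a difference between the clusters. TFAP2A, an ectodermal and crest factor, stood at 111.7 CPM in CP and at 399.7 CPM in NNE, where EYA1 also had its highest D10 level. GATA3 at 159.2 CPM and DLX3 at 39.5 CPM, factors of non-neural ectoderm, were highest in NNE as well. PAX2 and PAX8, which mark the otic placode, had 0 UMIs in both CP and CP1, while in CP2 PAX2 stood at 17.4 CPM on 7 UMIs and PAX8 had 0 UMIs. PAX6, which marks the lens placode as well as neural tissue, had 63.8 CPM in CP, 0 UMIs in CP1 and 380.6 CPM in CP2.

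Among relatives of the members SIX3, SIX5, SIX6 and DACH2 were examined. SIX6, a factor of the eye field, reached 27.4 CPM in NEP at D10, the type in which DACH1 was also highest, with 2.39 CPM in CP and 0 UMIs in every kept D15 type. The other 3 relatives stayed under 20 CPM in every type. None of the 17 comparable cofactors of the members' proteins was called in CP, and 2 were higher and 1 lower in CP1, shares near the 15.9% and 6.97% of all genes. Of 9 proposed targets 6 could be compared in CP, where GADD45G, a stress and differentiation gene, stood at 76.2 CPM against 6.52 CPM in ENC. Lists of 7 muscle and 9 kidney progenitor partners of the members had no gene that reached 5 CPM on either side of the CP, CP1 or CP2 comparison.

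Likeness was measured as the Pearson correlation of log2(CPM + 1) over the 9 cell types of both libraries, among 7599 genes with at least 20 CPM in 1 type, as a description over points that share libraries and depth. The genes most like EYA2 were GADD45G (r = 0.936), CCDC50, PHF21B, ZBTB18 and ACTC1. PHF21B stood at 41.9 CPM in CP and 36.0 CPM in CP1 and at most at 12.4 CPM elsewhere. Those most like SIX4 were TSPAN12 (r = 0.968), BTN2A2, MARCH5, BCL10 and TOB1. SEPT6, NDUFA9, RBX1, USP14 and PPP2CA were most like EYA1, and GTF2A2, ARF1, YIPF1, RPL26L1 and CCDC109B most like DACH1. For EYA3 the genes were NVL, KLHDC4, PPAT, MRPL15 and SERTAD4, and for EYA4 ANAPC7, PSPH, RNF138, RRP1B and FAM126A. These names changed with the measure used.

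The members were next followed inside the ENC class, which the authors divided into 4 numbered subclusters per library. At D10 EYA2 was concentrated in ENC 4, a subcluster of 187 cells, with 9.41 CPM on 13 UMIs against 0.390 CPM in the other numbered subclusters. That is a ratio of 24.1 (10.3 to 56.5), and these were 13 of the 30 EYA2 UMIs of all D10 ENC cells. SIX4 was also called higher there, at 7.24 CPM on 10 UMIs against 2.61 CPM, in a comparison where 2.41% of all genes were called higher. EYA1 had 3.62 CPM on 5 UMIs, DACH1 2.17 CPM on 3 UMIs and EYA4 1.45 CPM on 2 UMIs. All 8 comparable genes of sensory neurogenesis were called higher in ENC 4, with NEUROG1 at 116.6 CPM. A gene could be compared through its ENC 4 level alone, which favours such a count. NEUROD1, for example, was at 5.79 CPM there against 0.131 CPM in ENC 1. The 10 placode markers summed to 132.5 CPM in ENC 4 against 18.4 CPM over all ENC cells, with PAX8, PAX2, SST and ELAVL4 at 0 in ENC 4. NEUROG1 alone made up 116.6 CPM and 13.2 CPM of these sums. The 5 crest markers summed to 1209 CPM against 1599 CPM. Of the 13 ENC 4 cells with EYA2, 10 also had NEUROG1, where the product of shares gave 5.14, and 4 had SOX10, the crest factor, against 6.47. Whether these cells were placode cells in part was not tested.

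**Figure D2:**
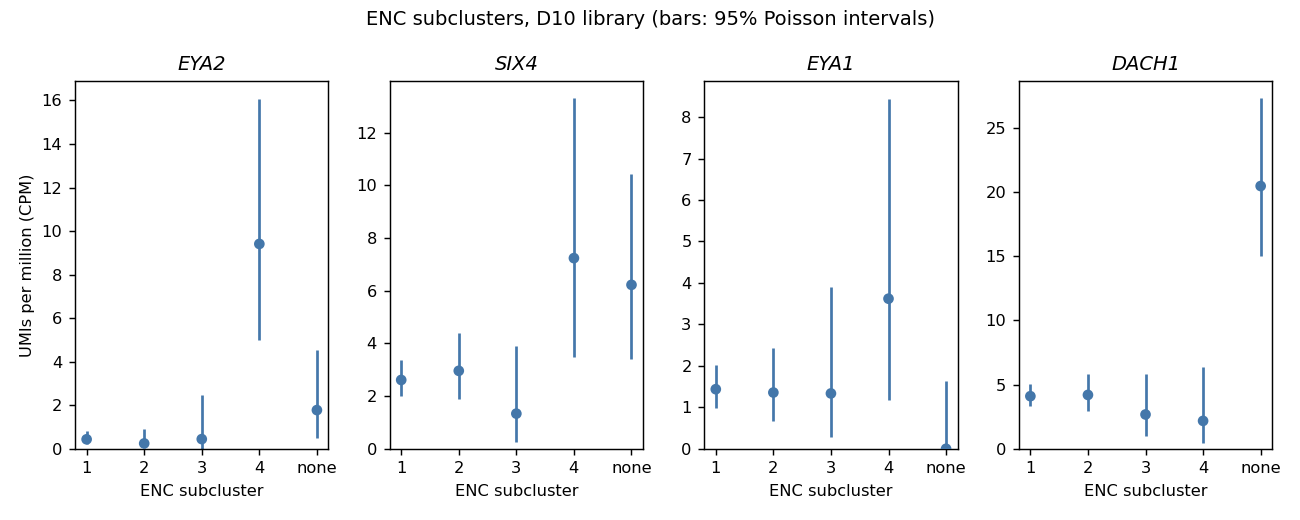
Level of EYA2, SIX4, EYA1 and DACH1 (y axes, CPM, separate ranges from 0) in the ENC subclusters 1 to 4 and in ENC cells with no number, D10 library, with 95% Poisson intervals as vertical bars. EYA2 stood out in subcluster 4 at 9.41 CPM and DACH1 in the cells with no number at 20.5 CPM.

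DACH1 behaved differently. It was at 20.5 CPM on 46 UMIs in the 256 D10 ENC cells that had no numbered subcluster, against 3.95 CPM in the numbered ones, a ratio of 5.18 (3.63 to 7.28). The authors' subcluster label for these cells was Non-NC. DACH1 was the only member called, where 14.6% of all genes were called higher, and EYA1 had 0 UMIs in these cells. The cells carried 1322 CPM of the 5 NEP markers, of which LHX2 was at 0, with PAX6 at 458.3 CPM, and 447.6 CPM of the 5 crest markers. SIX6 was at 22.2 CPM in them, against 0.218 CPM in ENC 1. The part of NEP RNA in the DACH1 level was not tested. The study left a cluster out of its ENC subclustering for high expression of placode genes. The deposited metadata do not say whether the Non-NC cells were that cluster.

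EYA3, whose level differed little between the cell types at D10, was uneven within ENC in that library. In ENC 2, a subcluster of 1129 cells, it stood at 42.7 CPM on 346 UMIs, against 13.9 CPM in ENC 1, 13.4 CPM in ENC 3 and 16.6 CPM in ENC 4. The ENC cells with no number had 30.7 CPM (23.9 to 38.8, 69 UMIs), between these levels. The ratio to the other numbered subclusters was 3.05 (2.63 to 3.54), or 1.54 on the log2 scale, and 1.17% of the 8768 genes compared were called higher. EYA3 was seen in 12.0% (10.1 to 14.0) of thinned ENC 2 cells and in 4.20% (3.51 to 4.98) of thinned ENC 1 cells. The log2 ratio was 1.44 within G1 cells, 1.46 within S and 1.63 within G2M, and 1.40 after thinning, so it was called within each phase and at equal depth. No other member was called in ENC 2, where DACH1 stood at 4.19 CPM, SIX4 at 2.96 CPM and EYA2 at 0.247 CPM.

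**Figure D3:**
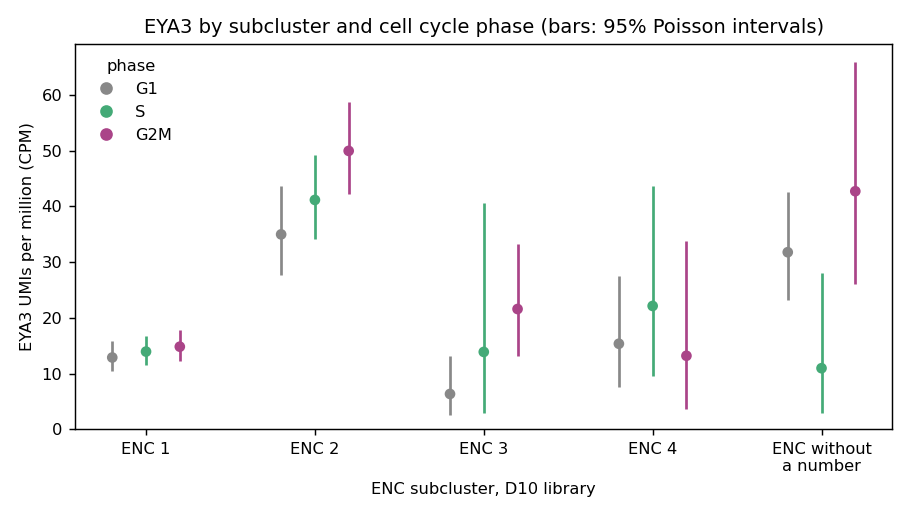
EYA3 level (y axis, CPM from 0) in the D10 ENC subclusters and in ENC cells with no number (x axis), split by the deposited cell cycle phase, with 95% Poisson intervals as vertical bars. In ENC 2 the G1, S and G2M cells stood at 35.0 CPM, 41.2 CPM and 49.95 CPM, each above the same phase of ENC 1, which ran from 12.9 CPM to 14.8 CPM.

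A few other genes were higher in ENC 2 as well. Of the lists, 1 of 16 comparable cofactors and 1 of 6 comparable targets were called higher there and 0 lower, where 1.17% of all genes were higher. TLE3, a Groucho co-repressor, was at 54.5 CPM there against 20.6 CPM in ENC 1, and SLC12A2, an ion transporter among the proposed targets of SIX4 and its relatives, at 21.2 CPM against 7.97 CPM. CTNNB1, which encodes beta-catenin, was at 299.3 CPM against 49.2 CPM and HNRNPH1, a splicing factor, at 587.6 CPM against 140.8 CPM. These last were chosen after their values were seen. MALAT1, a nuclear RNA often high in damaged cells, was at 16423 CPM in ENC 2, 16229 CPM in ENC 1, 8294 CPM in ENC 3 and 16796 CPM in ENC 4. At D15 the EYA3 level was 24.5 CPM, 23.9 CPM, 21.8 CPM and 27.0 CPM in ENC 1′ to ENC 4′, and no subcluster stood apart. Cells removed at D10 for too few genes had 42.6 CPM (36.4 to 49.6) of EYA3, close to ENC 2. The part of RNA quality in the EYA3 level of ENC 2 was not tested.

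Between the libraries ENC cells had less SIX4 and DACH1 at D15. SIX4 went from 3.00 CPM (2.47 to 3.62, 111 UMIs) at D10 to 0.501 CPM (0.333 to 0.725, 28 UMIs) at D15, a ratio of 0.167 and a log2 ratio of -1.42. DACH1 went from 4.95 CPM (183 UMIs) to 1.42 CPM (79 UMIs), a log2 ratio of -1.30. EYA4 went from 2.87 CPM to 1.25 CPM, at -0.78, and EYA1 from 1.41 CPM to 0.734 CPM, at -0.47. EYA3 stood at 21.3 CPM and 23.9 CPM and was the only member that reached 5 CPM on 1 side, so 0 members were called lower, where 6.02% of genes were. In thinned cells DACH1 was seen in 1.28% of ENC cells at D10 and 0.486% at D15, and SIX4 in 0.752% and 0.182%. The D10 ENC class includes the cells with no number that were rich in DACH1, and without them the D10 level was 3.95 CPM. Over all genes compared the median log2 ratio was -0.14.

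Over all kept cells, where fewer cells of a type and less RNA per cell cannot be told apart, DACH1 was the only member called lower at D15, from 11.4 CPM to 4.11 CPM with a log2 ratio of -1.28, where 9.29% of genes were called. The call was lost with a pseudocount of 5 CPM, at -0.85, and with a minimum of 20 CPM. SIX4 had a log2 ratio of -1.21 from 4.37 CPM to 1.33 CPM and was called as well where no minimum was set. EYA2 went from 2.73 CPM to 1.57 CPM, a log2 ratio of -0.53, EYA4 had -0.62, EYA1 -0.09 and EYA3 0.16.

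**Figure D4:**
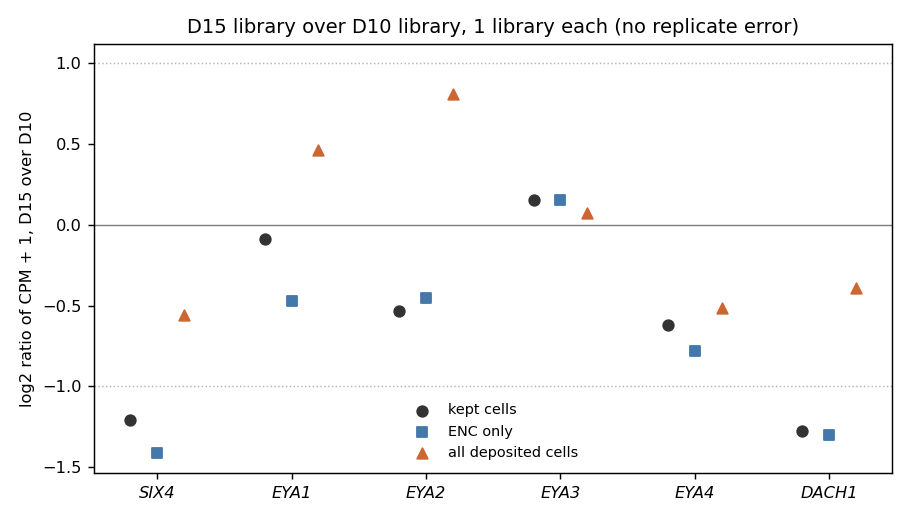
Log2 ratio of CPM + 1 (y axis), D15 over D10 library, for 6 members in kept cells (circles), ENC cells (squares) and all deposited cells (triangles), where dotted lines mark the size at which a gene was called. There are no error bars because each group was 1 library. EYA2 and EYA1 lay below 0 in kept cells and above 0 in all deposited cells.

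The direction for EYA2 depended on the cells removed by the quality limits. Over all deposited cells EYA2 was at 2.94 CPM at D10 and 5.92 CPM at D15, a log2 ratio of 0.81 in place of -0.53. EYA1 went to 0.47, and DACH1 to -0.39. No member was called in either direction over all deposited cells, where 8.64% of genes were called higher and 8.71% lower. The D15 limits of 1500 and 3500 genes and 20000 UMIs had removed 984 cells holding 28.98% of all UMIs, and 949 of those were removed for too many genes or UMIs.

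Those removed D15 cells held most of the UMIs of 4 members. They held 408 of 503 EYA2 UMIs, or 81.1% (77.4 to 84.4), 579 of 827 DACH1 UMIs, or 70.0% (66.8 to 73.1), 166 of 246 SIX4 UMIs, or 67.5% (61.2 to 73.3), and 145 of 242 EYA1 UMIs, or 59.9% (53.5 to 66.1). Without the deepest 10% of all D15 cells, which left 360 removed cells, the share was 36.3% (28.5 to 44.7) for EYA2, 30.9% for DACH1, 27.9% for SIX4 and 17.8% for EYA1, and that of the median gene 10.3%. All UMIs of these 4 members in removed cells lay in the 949 cells above the upper limits and none in the 35 cells with too few genes. The median over 12178 genes with at least 100 UMIs was 30.7%, and 15 genes (0.123%) were at or above EYA2. EYA3 had 29.8% and EYA4 38.9% of their UMIs in removed cells. At D10 the shares ran from 22.2% for EYA1 to 31.5% for DACH1 around a median of 22.9%.

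**Figure D5:**
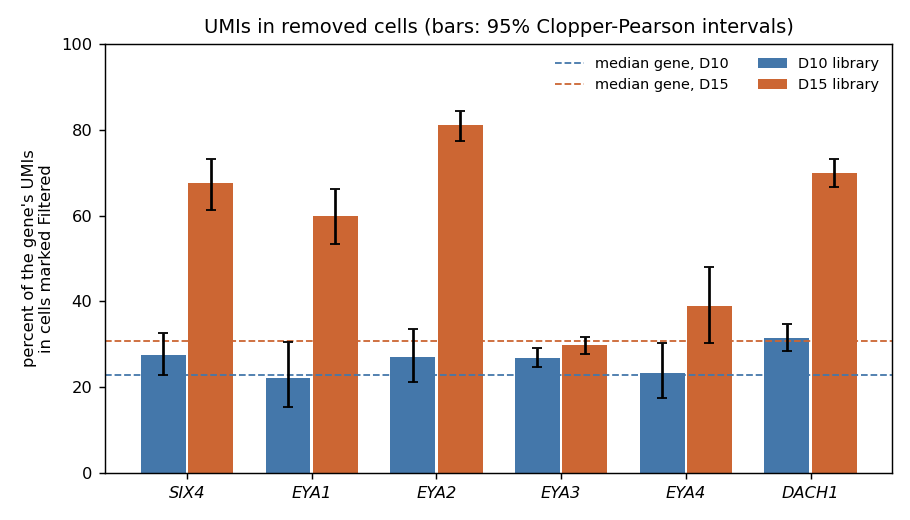
Percent of the UMIs of each member (y axis, 0 to 100) that lay in cells marked as filtered in the D10 (blue) and D15 (orange) libraries, with 95% Clopper-Pearson intervals, and dashed lines for the median gene. At D15 EYA2, DACH1, SIX4 and EYA1 lay between 59.9% and 81.1%, above the median of 30.7%, while EYA3 lay at 29.8%. Without the deepest 10% of cells, which is not drawn, EYA2 had 36.3% and the median gene 10.3%.

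By level these 4 members were also called higher in removed than in kept D15 cells, where 6.01% of 9446 genes were, with EYA2 at 16.6 CPM against 1.57 CPM, a ratio of 10.5 (8.40 to 13.3). DACH1 was at 23.5 CPM, SIX4 at 6.74 CPM and EYA1 at 5.89 CPM. All 17 comparable sensory neurogenesis genes were called higher, with NEUROD1 at 224.7 CPM, and the 10 placode markers summed to 4091 CPM against 541.5 CPM in kept cells. SST made up 2970 CPM and 384.2 CPM of these sums. In removed cells DLX5 stood at 0.487 CPM, PAX2 at 0.203 CPM and PAX8 at 0.0812 CPM. Here too a gene could be compared through the removed cells alone, as these 4 members were, which favours a call of higher. At D10 0 members were called, where 0.794% of genes were called higher in removed cells.

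EYA2 was seen in 225 of the 984 removed D15 cells. Of these 215 also had NEUROD1, where the product of the shares gave 89.6, and 213 had ISL1 against 91.0. DACH1 met EYA2 in 159 of them against 63.1. SOX10 was seen in 58 of them, fewer than the 131.7 of the product. Among all removed D15 cells 596 had none of EYA2, SIX4, EYA1 and DACH1, while 20 had all 4. The median depth was 20428 UMIs in the former and 53636 in the latter, and the largest count of EYA2 in 1 cell was 8, against 2 in CP1. After thinning to 3000 UMIs EYA2 was seen in 3.76% (2.66 to 5.15) of removed cells, between 9.62% in CP1 and 0.182% in ENC. The part of depth and of droplets with more than 1 cell in these counts was not tested.

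The members lie apart in the genome. In the GENCODE annotation of GRCh38 SIX4 lies on chromosome 14 (60709528 to 60724348, minus strand) and SIX2 on chromosome 2 (45005161 to 45009430, minus). EYA1 lies on chromosome 8 (71197433 to 71592025, minus), EYA2 on chromosome 20 (46894624 to 47188844, plus), EYA3 on chromosome 1 (27970344 to 28088696, minus) and EYA4 on chromosome 6 (133240598 to 133532120, plus). DACH1 lies on chromosome 13 (71437966 to 71867192, minus). Exons of 1 gene on the same strand (AL121776.1) overlap those of EYA2, so reads there could be assigned to either. Exons of 2 antisense genes overlap EYA1 and of 2 overlap EYA4, including TARID. The counts are per gene and do not say which exon was captured.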

How the data were processed

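Libraries were prepared with a droplet-based 3′ kit from accutase-dissociated H9 cells. Per the study's methods, reads were turned into count matrices by kallisto/bustools, while the submitters' processing notes name Cell Ranger, Seurat 4.0.4 and GRCh38. The annotation used for counting is not given in the sources used here. The authors deposited raw UMI counts per gene and cell, with no normalization, and metadata with the UMI and gene counts, the percent of mitochondrial and ribosomal UMIs, cell cycle phase, cell type and ENC subcluster of each cell. The authors computed these percent values in Seurat, marked cells outside their limits as filtered and clustered each library on its own. Cells were not assigned to the 2 pooled repeats, so each library was 1 sample and no test was made.

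Counts were summed by class with Python 3.11.15, NumPy 2.4.6, SciPy 1.17.1 and pandas 2.3.3, and figures were drawn with matplotlib 3.10.9. CPM are UMIs of a gene per 1000000 UMIs of the same cells. Ratios were taken as log2(CPM + 1), which understates the change of low genes, for genes with at least 5 CPM on 1 side, and called at 1 log2 unit. Where no UMI was found, up to 3 were allowed for, except for SIX4 in CP2, where the upper end of the Poisson interval was given. Shares of cells were taken after thinning each cell to 3000 UMIs, leaving out shallower cells (20 kept cells at D10, 0 at D15). The call rule was tested on simulated data. Doublets were not removed beyond the study's limits on genes and UMIs. All members were named, and genes of the lists were named where they had at least 20 CPM in 1 class or where a member's result turned on them. For each member with at least 100 UMIs the 5 genes of highest Pearson correlation were named. Members and lists were chosen with earlier results of these data known. Not every gene of these families is reported here. Alternatives comprised TMM scaling in edgeR 4.0.16 under R 4.3.3, median-of-ratios scaling, other pseudocounts and filters, other totals, G1 cells, cells without the deepest 10%, thinning to 5000 UMIs and all deposited cells. Leaving out shared barcodes or the deepest removed cells, and the phase and thinning checks of EYA3, were chosen after seeing the data.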

Additional observations from a re-analysis of the deposited data

Results flagged for a closer look

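Cells marked as filtered entered no cell type, and no comparison of types used them, yet 6 of the 7 members had counts there above the 3 UMIs that a count of 0 allows. In the D10 library the filtered cells had 6.07 CPM of SIX4, 1.85 CPM of EYA1, 3.70 CPM of EYA2, 28.98 CPM of EYA3, 2.77 CPM of EYA4 and 19.1 CPM of DACH1. In the D15 library they had 6.74 CPM of SIX4, 5.89 CPM of EYA1, 16.6 CPM of EYA2, 25.1 CPM of EYA3, 1.99 CPM of EYA4 and 23.5 CPM of DACH1. EYA2, DACH1, SIX4 and EYA1 at D15 were above their level in kept cells by more than 1 log2 unit, and SIX2 had 1 UMI.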

How the results depend on the processing

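Leaving out filtered cells gave EYA2 a D15 over D10 log2 ratio of -0.53, and all deposited cells gave 0.81. With TMM or median-of-ratios scaling, which moved the median gene from -0.18 to 0.03 and 0.01 in kept cells, it was -0.38 and -0.40. The count of members lower at D15 in kept cells was 1, and 0 with a pseudocount of 5 CPM, with all deposited cells or with a filter of 20 CPM, and 2 without a filter. In ENC cells it was 0, and 2 without a filter. The count of members higher in CP1 was 4, and 2 with a filter of 20 CPM. The share of EYA2 UMIs in filtered D15 cells was 81.1%, 73.0% without filtered cells above 40000 UMIs and 36.3% without the deepest 10% of cells, and the cause was not tested. Of 282 alternative levels 46 moved beyond counting error, 36 of them on leaving mitochondrial and ribosomal protein genes out of the total. Of 58 alternative ratios 15 moved, and of 18 alternative likeness lists 16. EYA3 in ENC 2 stayed called in all 4 of its alternatives. No paired analysis was possible because each group was 1 library. Depth limits CP2 and Mes most, where most members rest on 10 UMIs or fewer.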

Other observations

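EYA3 was followed by cell cycle phase in CP and over the ENC class. In CP at D10 it stood at 21.2 CPM (14.5 to 29.9) in G1, 23.9 CPM (12.4 to 41.8) in S and 36.5 CPM (21.6 to 57.6) in G2M cells, which overlapped. Over all D10 ENC cells the levels were 18.4 CPM (16.1 to 20.9) in G1 and 24.9 CPM (22.2 to 27.9) in G2M, which lay apart in this pool of subclusters. Within ENC 1 (12.9 CPM and 14.8 CPM) and within ENC 2 (35.0 CPM and 49.95 CPM) the intervals of these phases overlapped, and within ENC 3 (6.34 CPM, 2.55 to 13.1, and 21.6 CPM, 13.2 to 33.3) they lay apart. At D15 the levels over ENC were 22.2 CPM in G1 and 23.9 CPM in G2M. The 27 D15 ENC cells with no numbered subcluster, also labelled Non-NC, had 5 DACH1 UMIs (16.1 CPM), 2 of SIX4, 2 of EYA1 in 1 cell and 0 of EYA2. Their 10 placode markers summed to 1755 CPM. SST made up 1108 CPM of this sum, and 4 markers (PAX8, PAX2, DLX5 and ELAVL4) were at 0.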
